A study of Homo sapiens with 2 samples.

Results

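Collagen chain genes were examined in A549 cells, a long-established line from a human lung adenocarcinoma, with and without overexpression of plakophilin 2 (PKP2), a desmosomal protein with armadillo repeats. The genes were taken by name, as every RefSeq symbol made of COL, a number, A and a number, with earlier results of these data known. The rule found 44 genes, of which 36 had a row among the 16399 genes of the count files. The other 8 (COL1A2, COL2A1, COL6A3, COL6A5, COL6A6, COL9A1, COL19A1 and COL25A1) are not analysed here. RNA was sequenced from A549 cells at passage 5 in medium with serum, 1 library from cells with the vector and 1 from cells given PKP2 with an SFB tag. With 1 library per group no difference has a replicate check and no p-value was computed. Each comparison sets 1 library against the other, not 1 condition against the other.

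Collagens are secreted or membrane-bound proteins whose alpha chains wind into a triple helix. Each helical stretch repeats glycine followed by any pair of residues, often proline and hydroxyproline. Fibrillar collagens form the banded fibres of connective tissue, and network collagens form sheets, above all the type IV sheet of basement membranes. FACIT collagens sit on the surface of fibrils, and transmembrane collagens span the plasma membrane of epithelial and other cells. In the lung, basement membranes under epithelium hold type IV collagen, while most fibrillar collagen is made by fibroblasts.

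The repeat can be read in the coding sequence, where glycine codons are GGN. In fibrillar collagen genes much of the helix is encoded by exons of 54 bases, each with 6 repeat units. The exons below are shown because COL5A1 and COL5A2 differed in opposite directions between the libraries, and the sequences show how the same repeat is written with different base composition. They are the first coding exon of that kind in each gene, read from GENCODE transcripts on GRCh38, 5′ to 3′, with the first codon of each repeat unit, a GGN codon, in capitals.
COL5A1, coding exon 15, chr9:134753850-134753903, plus strand: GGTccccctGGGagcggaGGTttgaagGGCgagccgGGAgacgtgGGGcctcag
COL5A2, coding exon 6, chr2:189097277-189097330, minus strand: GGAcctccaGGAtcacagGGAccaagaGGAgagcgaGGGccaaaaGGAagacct
The COL5A1 exon had a GC content of 72.2% and the COL5A2 exon 59.3%. COL5A1 held 29 such exons and COL5A2 held 24. Over all codons in tandem repeats of 3 units or more, the third codon base was G or C in 50.1% of COL5A1 codons and in 24.0% of COL5A2 codons.

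A repeat unit was counted as a GGN codon with the next 2 codons. The longest unbroken run of such units set the listed fibrillar chains apart, while the ranges of the FACIT, network and transmembrane chains overlapped. Among the listed fibrillar chains, COL1A1, COL3A1, COL5A1, COL5A2, COL5A3, COL11A1 and COL11A2 had runs of 337 to 343 units, and COL24A1 and COL27A1 had 216 and 217. Runs in the type IV chains were 38 to 66 units long, although 74.7% to 78.8% of their codons lay in tandem units, so their repeats are broken many times. The FACIT chains COL9A2, COL9A3, COL21A1 and COL22A1 shared a longest run of 113 units, whereas COL12A1, a coding sequence of 3063 codons, and COL14A1 had 32, COL20A1 had 40 and COL16A1 had 57. In the transmembrane chains COL13A1, COL17A1 and COL23A1 the longest run was 43 to 56 units.

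**Figure D1:**
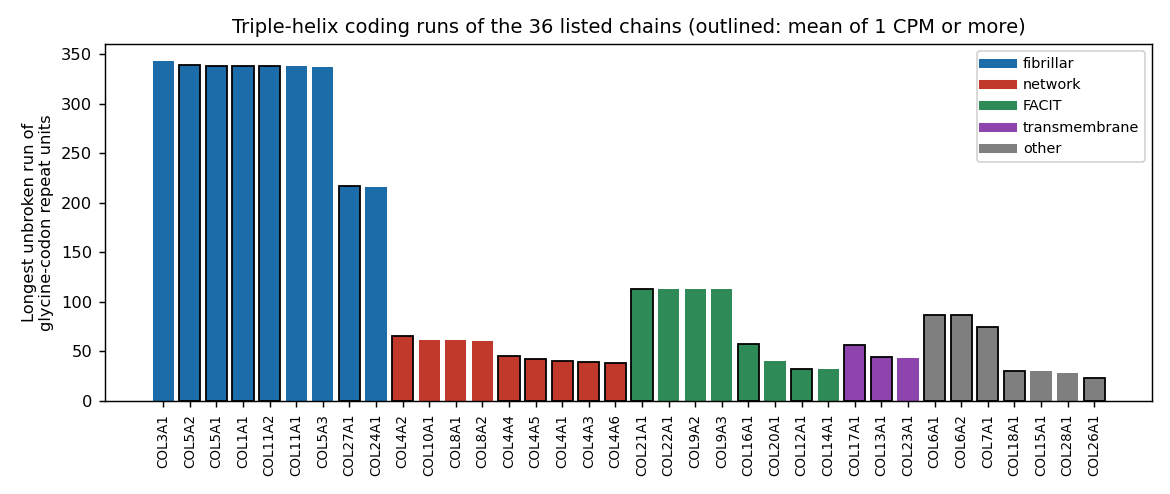
Longest unbroken run of repeat units, each a glycine codon with the next 2 codons, in the longest coding sequence of each of the 36 listed chains (vertical axis, units), coloured by class; black outlines mark chains with a mean of 1 CPM or more. Fibrillar chains stand at 216 units or more, and no chain of another class exceeds 113.

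Total estimated counts were 16996976 for vector and 16808842 for PKP2. The PKP2 gene stood at 27.3 CPM (counts per 1000000 of the library) in vector and 268 CPM in PKP2, a ratio of 9.82 (8.92 to 10.8). Of 8 epithelial or lung carcinoma markers, 6 reached a mean of 1 CPM, from EPCAM at 1.47 and 1.37 CPM to the keratin KRT8 at 5339 and 5416 CPM. The lung lineage genes NKX2-1 and SFTPB stood at or under 0.118 CPM in both libraries. Fibroblast markers summed to 49.5 CPM in vector and 53.4 in PKP2, 46.7 and 49.9 of it from FBLN1. DCN, DPT and POSTN are not analysed here, and PDGFRB was at 0.0588 and 0.0595 CPM. Endothelial markers summed to 0.412 and 1.13 CPM, with 0 of 6 at a mean of 1 CPM. Leukocyte markers summed to 82.1 and 86.0 CPM, 78.4 and 82.5 of it from CD68, while PTPRC, CD3E and MS4A1 are not analysed here. Cartilage markers summed to 35.0 and 33.1 CPM, 28.6 and 28.5 of it from SOX9. The part of any of these cell types in the collagen values was not tested.

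Together the 36 chains held 1601 CPM in vector and 1637 CPM in PKP2, 0.160% and 0.164% of all counts. A mean of 1 CPM or more over both libraries was reached by 21 chains, and these are called expressed below, as is any other gene at that level. The other 15 had between 0 and 13 counts in either library. Nearest under the limit were COL20A1 (8 and 13 counts in vector and PKP2) and COL22A1 (5 and 11 counts), at means of 0.622 and 0.474 CPM. Nearest above it were COL13A1 (22 and 35 counts) and COL11A2 (24 and 34 counts), at 1.69 and 1.72 CPM. COL9A3 and COL23A1 had 0 counts in vector and 1 in PKP2. COL8A2 had 1 count in vector and 0 in PKP2. A count of 0 allows up to 3 counts, or 0.177 CPM in vector and 0.178 CPM in PKP2, so no difference was detectable in these 3 chains at this depth. COL8A1, a short-chain network collagen, had 2 and 9 counts, and the counting interval of its ratio, 0.942 to 43.3, includes 1. COL11A1, a fibrillar chain, had 6 and 1 counts, and its interval of 0.00366 to 1.39 includes 1 as well.

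**Figure D2:**
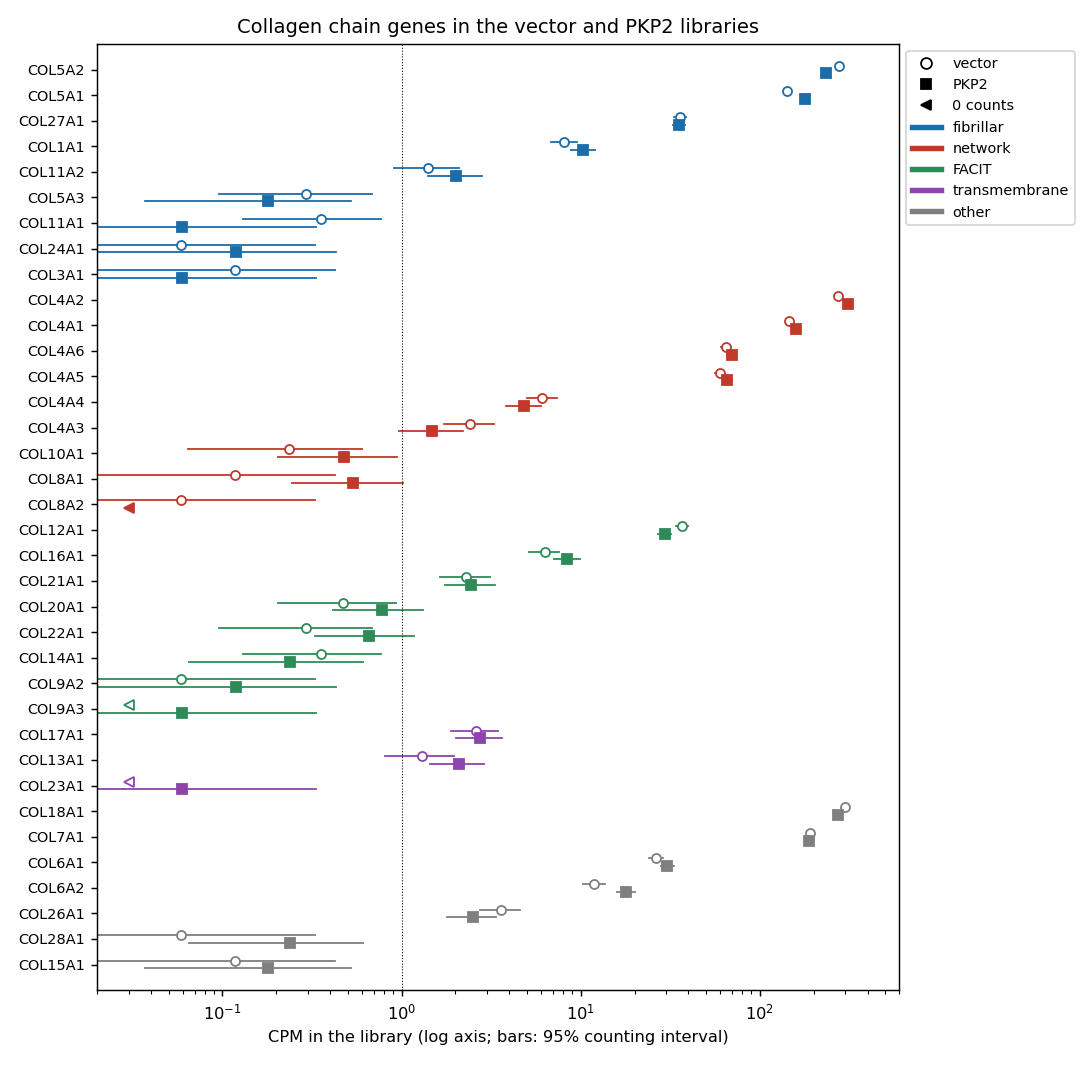
CPM of each listed collagen chain (log axis) in the vector library (open circles) and the PKP2 library (filled squares), with 95% counting intervals, coloured by class; triangles mark 0 counts and the dotted line 1 CPM. COL4A2, COL18A1 and COL5A2 stand highest, and both libraries give nearly the same order.

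Levels of different genes were compared as CPM per kilobase of the longest annotated transcript. On this scale COL4A2 stood at 42.1 in vector and 47.9 in PKP2, and COL18A1 at 45.5 and 41.7. COL18A1 encodes a basement membrane collagen whose C-terminal fragment is endostatin. COL5A2 followed at 38.9 and 33.1, COL4A1 at 22.1 and 24.2, COL7A1 at 20.5 and 20.2, and COL5A1 at 16.9 and 21.2. COL7A1 forms the anchoring fibrils that tie epithelial basement membrane to the matrix beneath.

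These 6 genes held 80.6% of the summed collagen level per kilobase. On the longest transcript, the order of the first pair was reversed between the libraries, COL18A1 leading in vector and COL4A2 in PKP2. Their intervals did not overlap in either. COL7A1 and COL5A1 also changed places, with intervals that overlapped in PKP2 (19.53 to 20.95 and 20.43 to 21.95) and did not in vector (19.78 to 21.20 and 16.19 to 17.54). COL4A5 and COL4A6, at 9.29 and 9.62 in vector and 10.2 and 10.4 in PKP2, did not differ beyond their intervals. The order depends on the length used. With the median length of coding transcripts COL4A2 was first by the mean of both libraries, 4.36-fold further up. COL4A1 then ranked second and COL18A1 after it. These means were 196 for COL4A2 and 52.8 for COL18A1, and 38.3 for COL7A1 and 19.1 for COL5A1. Both changes of place thus rest on the longest transcript, and the COL18A1 value is uncertain for a reason given below. COL4A2 lay above 89.0% of all expressed genes and COL5A1 above 73.5%, whereas the fibroblast-type collagen COL1A1 lay above 13.8% and the hemidesmosomal collagen COL17A1 above 3.83%.

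The difference used here is log2(CPM + 1) in PKP2 minus that in vector, and it understates differences of chains near 1 CPM. No expressed chain was 1.5-fold apart on this scale in either direction, 0 of 21, while 0.633% of all 12632 expressed genes were 1.5-fold higher and 0.712% 1.5-fold lower. At 2-fold the shares of all genes were 0.0871% higher and 0.0712% lower, again with 0 chains. At these shares a count of 0 among 21 does not set the chains apart from other genes. As plain ratios of CPM, 3 of the expressed chains were past 1.5-fold. COL13A1 at 1.61 and COL6A2 at 1.51 were higher and COL4A3 was 1.62-fold lower, and of these COL6A2 had an interval clear of 1. No share of all expressed genes is given on plain ratios, so this count cannot be set against other genes. Ratios were also given an exact 95% interval that covers counting error only. It lay above 1 for 8 of 21 chains (COL1A1, COL4A1, COL4A2, COL4A5, COL5A1, COL6A1, COL6A2 and COL16A1), where 16.5% of all expressed genes did so. It lay below 1 for 3 of 21 (COL5A2, COL12A1 and COL18A1), where 20.0% of all expressed genes did so. The median difference of the chains was 0.11, with 13 higher and 8 lower, beside 0.00 for all genes, with 6272 higher and 6360 lower. The mean level was alike, with a median of 28.5 CPM for the chains and 30.5 for all genes.

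**Figure D3:**
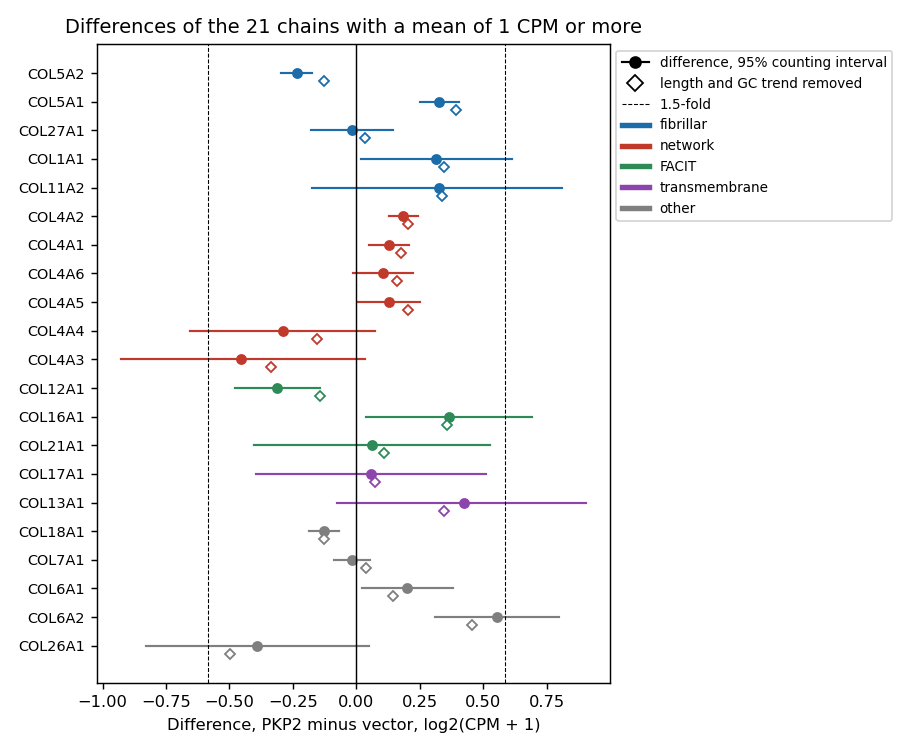
Difference of the 21 expressed chains in log2(CPM + 1), PKP2 minus vector (filled circles, bars for the 95% counting interval), with the difference after removal of the length and GC trend (open diamonds); dashed lines mark 1.5-fold. All 21 circles lie inside the dashed lines, and COL5A1 and COL5A2 lie on opposite sides of 0.

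Length and GC content of transcripts moved with the difference across all genes. With genes in 5 equal groups, the median difference went from -0.12 at the lowest GC content to 0.09 at the highest, and from 0.13 for the shortest transcripts to -0.15 for the longest. Collagen transcripts are long and rich in GC, which lie on opposite sides of this trend. The expressed chains had a median length of 6586 nucleotides and a median GC content of 60.3%, against 3732 nucleotides and 48.3% for all genes. Across the 21 chains, which share both libraries, Spearman's rho of the difference was 0.34 with GC content and -0.46 with length, and across 12505 genes 0.38 and -0.47. With an additive trend on both removed, the median of the chains was 0.14, with 15 higher and 6 lower. For all genes it was -0.01, with 5850 higher and 6655 lower. Within the chains rho of the remaining difference was still 0.25 with GC content and -0.33 with length, against 0.0009 and -0.000646 across all genes. No chain with an interval clear of 1 turned its direction.

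**Figure D4:**
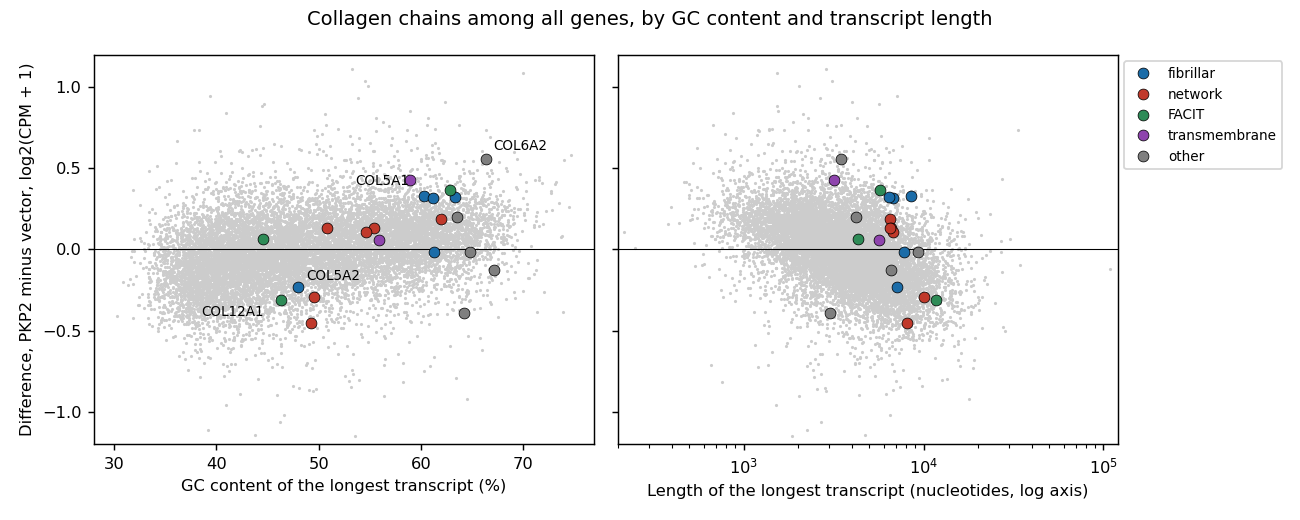
Difference in log2(CPM + 1), PKP2 minus vector, against GC content (left, %) and length (right, nucleotides, log axis) of the longest transcript, for expressed genes (grey) and the 21 collagen chains (coloured by class); 10 genes beyond 1.2 are outside the frame. Of the labelled chains, COL5A2 and COL12A1 lie at a GC content under 48%, COL5A1 and COL6A2 above 60%. Other chains do not follow this split: COL18A1 (67.2%) and COL26A1 (64.2%) lie below 0, and COL21A1 (44.5%) lies above 0.

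Fibrillar chains went different ways. COL5A1 (Entrez ID 1289, chromosome 9, 134641774 to 134844843, GRCh38), a chain of the type V collagen that starts and limits the width of fibrils, was at 142.8 CPM in vector and 179.4 CPM in PKP2. The PKP2 value was 1.26-fold higher, with an interval of 1.19 to 1.33. COL5A2 (Entrez ID 1290, chromosome 2, 189031896 to 189225312), its partner in the common type V molecule, was at 275.6 CPM in vector and 234.2 CPM in PKP2. Here the PKP2 value was the lower one, by 1.18-fold (1.13 to 1.23). The level per kilobase of COL5A2 was 2.31 times that of COL5A1 in vector and 1.56 times in PKP2. The count of COL5A1 relative to COL5A2 was thus 1.48-fold higher in PKP2 (1.38 to 1.58), the widest shift of the 5 chain pairs compared.

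With the length and GC trend removed, COL5A1 lay at 0.39 instead of 0.33 and COL5A2 at -0.13 instead of -0.23. The gap between them was then 0.52 instead of 0.56 on the log2 scale. The transcripts differed in GC content, 60.3% for COL5A1 and 47.9% for COL5A2.

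COL1A1, a chain of the main collagen of bone, skin and scar, was at 8.12 CPM in vector and 10.4 in PKP2, 1.27-fold higher in PKP2 (1.01 to 1.61). COL27A1, a chain with a shortened helix expressed in cartilage among other tissues, was at 35.9 and 35.5 CPM, a ratio of 0.988 (0.881 to 1.11). COL11A2, a cartilage fibril chain, had 24 counts in vector and 34 in PKP2, a ratio of 1.43 with an interval of 0.825 to 2.52. COL3A1, the partner of type I collagen in soft tissue, had 2 counts in vector and 1 in PKP2, and COL11A1 had 6 and 1. Summed over the 9 listed fibrillar chains, the level was 464.7 CPM in vector and 461.9 CPM in PKP2, a ratio of 0.994 (0.963 to 1.03). The class as a sum therefore did not differ detectably although its leading pair did. The median difference of its 5 expressed chains was 0.32, but -0.02 over all 9 listed chains, so its direction rests on the filter.

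Network collagens were almost wholly type IV. The genes lie in head-to-head pairs that start from a shared stretch of DNA. In each pair both chains lay on the same side of 0, but the intervals of COL4A3, COL4A4 and COL4A6 included 1. COL4A1 (Entrez ID 1282, chromosome 13, 110148963 to 110307233) and COL4A2 (Entrez ID 1284, chromosome 13, 110305812 to 110513209) encode the chains of the common basement membrane molecule. Their RefSeq starts on GRCh38.p14 lie on opposite strands with 126 bases between them. GENCODE annotates further starts for both, and by its coordinates the genes overlap. The RefSeq stretch is shown because both genes are read outwards from it. Whether it bears on their differences between the libraries was not tested. It is given 5′ to 3′ on the plus strand, the strand of COL4A2, with a CCAAT match and a GGGCGG match in capitals.
COL4A1 to COL4A2, chr13:110307158-110307283: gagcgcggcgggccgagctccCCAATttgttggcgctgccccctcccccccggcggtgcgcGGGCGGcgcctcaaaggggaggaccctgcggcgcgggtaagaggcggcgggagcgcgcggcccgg
Searched on both strands were CCAAT, the box motif GGGCGG, and the start motif TATAAA. The first 2 each had 1 match, on the plus strand, and TATAAA had 0. Among 27305 RefSeq promoter windows of 300 bases, 35.7% held CCAAT, 44.6% GGGCGG and 12% TATAAA. These windows are longer than the 126 bases searched here, so the shares are not at like length. The stretch had a GC content of 80.2%. Starts of COL4A3 and COL4A4 had 418 bases between them, and those of COL4A5 and COL4A6 had 379.

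COL4A1 was at 146.4 CPM in vector and 160.3 in PKP2, 1.10-fold higher (1.04 to 1.16). COL4A2 was at 273.5 and 311.0 CPM, 1.14-fold higher (1.09 to 1.18). COL4A1 relative to COL4A2 had a ratio of 0.963 between the libraries (0.900 to 1.03), so the balance of the pair did not differ detectably. COL4A5 and COL4A6, neighbours on chromosome X, were at 60.2 and 65.0 CPM in vector and at 66.0 and 70.0 in PKP2. COL4A5 was 1.10-fold higher (1.01 to 1.19), and COL4A6 had a ratio of 1.08 with an interval of 0.991 to 1.17. Their balance shifted by 1.02-fold (0.903 to 1.15).

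COL4A3 and COL4A4, on chromosome 2, encode chains that join COL4A5 in the mature basement membranes of glomerulus and alveolus. They were scarce here. COL4A3 had 41 counts in vector and 25 in PKP2, a ratio of 0.617 (0.359 to 1.04), and COL4A4 had 104 and 81, a ratio of 0.788 (0.582 to 1.06). Both ratios were under 1 and both intervals included 1. Their balance had a ratio of 0.783, with a wide interval of 0.420 to 1.44.

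The 9 network chains summed to 554.0 CPM in vector and 614.6 CPM in PKP2, 1.11-fold higher (1.08 to 1.14), of which COL4A2 alone held 310.97 CPM in PKP2. The median difference of the 6 expressed type IV chains was 0.12, or 0.17 without the trend. The short-chain collagens COL8A1, COL8A2 and COL10A1 had at most 9 counts in either library.

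**Figure D5:**
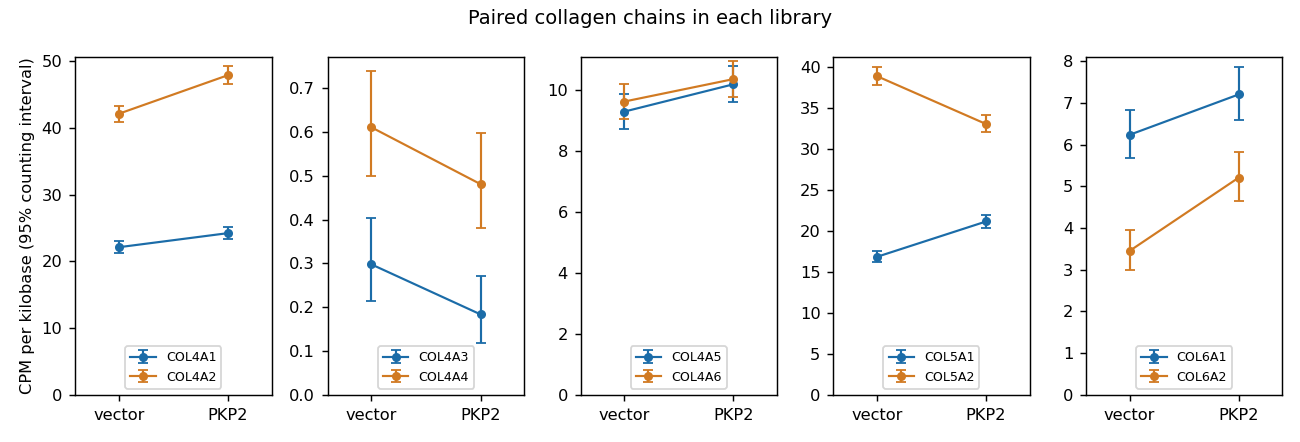
CPM per kilobase (vertical axes from 0, scaled per panel) of 5 pairs of collagen chains in the vector and PKP2 libraries, with 95% counting intervals. COL5A1 and COL5A2 approach each other from vector to PKP2, whereas COL4A1 and COL4A2 are both higher in PKP2.

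FACIT chains were led by COL12A1, which binds the surface of type I fibrils. COL12A1 was at 36.8 CPM in vector and 29.4 in PKP2, 1.25-fold lower in PKP2 (1.11 to 1.41). COL12A1 has the longest transcript of the expressed chains, 11723 nucleotides with a GC content of 46.3%. After removal of the trend its difference was -0.14 instead of -0.31. COL16A1, another FACIT chain, was at 6.30 and 8.39 CPM, 1.33-fold higher in PKP2 (1.03 to 1.73). COL21A1 had 39 and 41 counts, with a ratio of 1.06 (0.669 to 1.69). COL14A1, COL20A1, COL22A1, COL9A2 and COL9A3 were all under a mean of 1 CPM. The 8 listed chains summed to 46.5 CPM in vector and 42.1 in PKP2, a ratio of 0.905 whose interval of 0.817 to 1.003 includes 1.

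Transmembrane chains were scarce. COL17A1, the collagen of epithelial hemidesmosomes, was at 2.59 CPM in vector and 2.74 in PKP2, a ratio of 1.06 (0.684 to 1.64). COL13A1, found at cell-matrix contacts and the neuromuscular junction, was at 1.29 and 2.08 CPM, a ratio of 1.61 with an interval of 0.918 to 2.88. Neither differed detectably at this depth. The class summed to 3.88 CPM in vector and 4.88 CPM in PKP2, a ratio of 1.26 (0.897 to 1.76).

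Outside these 4 classes stood 10 chains, 7 of them listed. The beaded-filament chain COL6A2 (Entrez ID 1292, chromosome 21, 46098097 to 46132849) had the largest upward difference of the expressed chains on the log2(CPM + 1) scale. It was at 11.9 CPM (203 counts) in vector and 18.0 CPM (303 counts) in PKP2, a ratio of 1.51 (1.26 to 1.81). Its difference was 0.56, just under the 0.58 of 1.5-fold, and 0.760% of all expressed genes had a larger one. Without the trend it was 0.46.

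COL6A1, the partner of COL6A2 and its neighbour on chromosome 21, was at 26.4 and 30.5 CPM, 1.16-fold higher in PKP2 (1.02 to 1.31). The COL6A1 level per kilobase was 1.81 times that of COL6A2 in vector and 1.38 times in PKP2. COL6A1 relative to COL6A2 thus had a ratio of 0.765 between the libraries (0.611 to 0.958). Both chains have the same longest run of 87 repeat units.

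COL18A1 was at 299.9 CPM in vector and 274.5 in PKP2, 1.09-fold lower (1.05 to 1.14), and its difference was -0.13 with and without the trend. It was the 1 listed chain with a fractional count. In GENCODE 16.4% of its exonic bases are shared with SLC19A1 on the opposite strand, and no source used here gives the strand setting of the counting, so its value is uncertain. COL7A1 was at 190.0 CPM in vector and 187.7 CPM in PKP2, a ratio of 0.988 (0.940 to 1.04). COL26A1 had 61 and 42 counts, a ratio of 0.696 with an interval of 0.458 to 1.05. COL15A1 and COL28A1 had at most 4 counts.

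Genes that build, process, bind and break down collagen were taken as 6 lists of 64 genes in all. Of the 28 expressed genes for biosynthesis and processing, 11 had an interval above 1, 5 below 1 and 12 included 1, where 16.5% of all expressed genes lay above and 20.0% below. Their median level was 51.2 CPM, against 30.5 for all expressed genes. Higher counts narrow the interval, so these shares are not at like depth. On the log2(CPM + 1) scale 0 of 28 were 1.5-fold apart, where 0.633% of all expressed genes were higher and 0.712% lower by that much. Their median difference was 0.10, or 0.04 after the length and GC trend was taken out. Enzymes that hydroxylate and isomerise the chains gave 7 above 1 and 2 below among 14 expressed, at a median level of 68.9 CPM. P4HB, the beta subunit of prolyl 4-hydroxylase and a disulfide isomerase, was at 1123 CPM in vector and had a ratio of 1.09 (1.07 to 1.11). PPIB, the proline isomerase cyclophilin B, had a ratio of 1.18 (1.15 to 1.22) from a fractional count, and CRTAP, its partner in prolyl 3-hydroxylation, had 0.965 (0.933 to 0.999). With the trend removed P4HB lay at 0.01 instead of 0.12 and PPIB at 0.07 instead of 0.24. CRTAP lay at 0.04 instead of -0.05. Over the 14 expressed genes of this list the median was 0.04 instead of 0.10, with 11 higher and 3 lower both before and after removal.

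Among folding and export genes 2 of 7 had an interval above 1 and 2 below. These counts are too small to set apart from the 16.5% above and 20.0% below of all expressed genes. SERPINH1, the collagen chaperone HSP47, had a ratio of 1.11 (1.04 to 1.17) and the prolyl isomerase FKBP10 1.09 (1.03 to 1.16). MIA2, which helps load procollagen at exit sites of the endoplasmic reticulum, was lower, at 0.890 (0.814 to 0.972). The other gene below 1, FKBP14, named after its value was seen, had 0.778 (0.686 to 0.883) from a fractional count. With the trend removed SERPINH1 lay at 0.09 instead of 0.15 and FKBP10 at 0.03 instead of 0.13. MIA2 lay at -0.07 instead of -0.17 and FKBP14 at -0.24 instead of -0.35. Of 4 expressed genes for propeptide removal, BMP1, the C-proteinase, had 1.13 (1.04 to 1.22), the related TLL1 0.693 (0.545 to 0.880) and the enhancer PCOLCE2 0.947 (0.801 to 1.12). The other, PCOLCE, an enhancer of the same step named after its value was seen, had 27 and 47 counts and a ratio of 1.76 (1.07 to 2.94). LOXL2, which cross-links collagen and was by far the most abundant enzyme of its list at 377 CPM in vector, had a ratio of 0.980 (0.946 to 1.01). LOX, with 29 and 37 counts, had 1.29 (0.772 to 2.18), and LOXL4, with 26 and 34, had 1.32 (0.770 to 2.29).

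Of 7 expressed receptor genes 0 had an interval above 1, 3 had one below and 4 included 1, beside 16.5% above and 20.0% below for all expressed genes. The receptor genes had a median level of 80.9 CPM, against 30.5 for all expressed genes, which narrows their intervals. ITGB1, the beta subunit shared by all collagen-binding integrins, had a ratio of 0.852 (0.839 to 0.864), ITGA2, an alpha subunit for collagen, 0.704 (0.664 to 0.747), and the receptor kinase DDR1 0.918 (0.856 to 0.984). With the trend removed they lay at -0.17, -0.33 and -0.18. Among 10 expressed breakdown genes and inhibitors 3 had an interval above 1, 1 below and 6 included 1, counts too small to set apart from the 16.5% and 20.0% of all expressed genes. The lysosomal protease CTSB had a ratio of 1.13 (1.09 to 1.17), whereas TIMP2 with 0.967 (0.931 to 1.01) and CTSL with 0.992 (0.947 to 1.04) did not differ detectably. The others with an interval clear of 1 are named after their values were seen. They were TIMP1 at 1.23 (1.16 to 1.30), MMP15 at 1.15 (1.02 to 1.29) and TIMP4 at 0.757 (0.624 to 0.919). With the trend removed TIMP1 lay at 0.09, MMP15 at 0.13 and TIMP4 at -0.51.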

How the data were processed

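RNA sequencing of total RNA gave 1 vector and 1 PKP2 library. The deposited values are estimated counts per gene by Entrez ID, named counts per the file headers, with 16996976 and 16808842 in all. Per the submitters' processing notes, the build was GRCh38.p12 and the tools were RSEM 1.2.12, HISAT2 2.0.4 and Bowtie2. No source used here gives the annotation release, filters or strand setting. Symbols were matched by Entrez ID to RefSeq (GRCh38.p14, 16183 of 16399 IDs), which also gave the promoter windows, 32 of the 44 chains having one. Length, GC content, coordinates and coding exons came from GENCODE release 29. CPM was computed with Python 3.11.15 and pandas 2.3.3, and intervals are exact 95% Clopper-Pearson (ratios), Poisson (levels) or conditional odds ratio (pairs) intervals from rounded counts, with scipy 1.17.1. They cover counting error only. Expressed genes, at a mean of at least 1 CPM, entered counts and medians, a filter that favours neither library. The trend on length and GC content was an additive lowess fit with a span of 0.3 (statsmodels 0.14.6), available for 99.0% of those genes. Every chain was described, and in each companion list the 3 most abundant genes and any 1.5-fold apart were named. PCOLCE, FKBP14, TIMP1, MMP15 and TIMP4 were named besides, after their values were seen. Members, classes and lists were chosen with earlier results of these data known. Alternatives covered pseudocount, filter, scaling, trend, fractional counts and length, and the calculation was tested on simulated data.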

Additional observations from a re-analysis of the deposited data

How the results depend on the processing

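The count of 0 chains at 1.5-fold changed with the pseudocount alone. At 0.1 CPM 2 chains were higher (COL6A2 at 0.59 and COL13A1 at 0.65) and 1 lower (COL4A3 at -0.66), because a smaller pseudocount shrinks low values less. The shares of all genes are not given at this pseudocount, so these counts cannot be set against other genes. Each median was given a counting range, the median of its genes' own interval limits, such as -0.18 to 0.40 for the fibrillar chains. This range has the width of a single gene and is not an interval of the median. The medians of all chains, of the 4 classes and of the biosynthesis genes stayed inside it under every setting run. Those settings were filter, scaling, pseudocount, trend and fractional counts. With ranges so wide this is a weak check. The fibrillar median was nevertheless 0.13 at a pseudocount of 5 CPM, 0.15 at a mean of 5 CPM or more and -0.02 without the filter, against 0.32. The transmembrane median was 0.08 without the filter and 0.36 at a pseudocount of 0.1 CPM, against 0.24, and had no value at a mean of 5 CPM or more. Median and trimmed mean scaling moved all differences by at most 0.01. With the length and GC trend removed, COL5A2 and COL12A1 moved out of their counting intervals, to -0.13 and -0.14, without turning. With the median coding transcript as length, 16 of 21 levels per kilobase moved, by up to 8.90-fold for COL4A3, since short annotated fragments count there, and COL4A1 then ranked second. No paired analysis was possible because each group has 1 library. No replicate could be left out for the same reason.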
